A study of Mus musculus with 11 samples.

Results

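The insulin-like growth factor (IGF) genes examined here were 10 listed genes: the ligands Igf1 and Igf2, the receptors Igf1r, Insr and Igf2r, the adaptor Irs1 and the binding proteins Igfbp2, Igfbp3, Igfbp4 and Igfbp5. They were taken by Ensembl gene identifier from count tables of 38924 mouse genes, of which 16436 had enough reads to be tested, and all 10 IGF genes were among these. RNA-Seq had been performed on cerebellar granule cell precursors (GCps) purified at P7 from C57Bl/6J pups of 2 genotypes, with 2 libraries each. The cko pups were Math1cre;Chd7flox/flox, so the chromatin remodeler CHD7 was deleted by a Cre that is driven in the granule cell lineage. The control pups were Chd7flox/+ in the sample labels and carried 1 floxed and 1 wild-type allele with no Cre listed, whereas the submitters' extraction notes give controls with 2 floxed alleles. Cerebella were pooled within a genotype, the posterior lobules that this Cre spares were removed before dissociation, and GCps were enriched on a Percoll gradient, so other cells of the cerebellum and its coverings could be carried along. Nothing in the labels says that the 2 libraries of a genotype came from separate pools, and p values measure the spread between these libraries only.

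IGF signaling begins when IGF1 or IGF2 binds the type 1 IGF receptor, a tyrosine kinase that is closely related to the insulin receptor. The activated receptors phosphorylate insulin receptor substrate proteins such as IRS1, which recruit PI3K and so engage AKT and mTOR and keep FOXO factors out of the nucleus. Binding proteins hold IGFs in the extracellular space, and the type 2 receptor removes IGF2 without signaling through a kinase. In the developing cerebellum IGFs are known as growth and survival signals for granule precursors, and IRS1 has been described in these cells as a point where Hedgehog and IGF signals meet.

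The libraries held 73480074 and 62437759 counted reads in cko GCps and 77346481 and 61836588 in control GCps. The 10 IGF genes together took 736 and 863 CPM (reads per 1000000 counted reads, with library sizes scaled for composition by TMM) in cko GCps and 849 and 851 CPM in control GCps. All 8 granule precursor markers were detected, with a summed level of 3598 and 4232 CPM in cko libraries and 4471 and 4432 CPM in control libraries. Of these markers 3 were higher and 3 lower in both cko libraries, beside 22.7% and 21.2% of all tested genes. By edgeR 0 of the 8 were called, beside 0.809% of all tested genes called higher and 0.773% lower. Their median log2 fold change was 0.07. Chd7 itself had 392 and 355 CPM in cko GCps and 322 and 319 CPM in control GCps. A count over the whole gene cannot show the loss of a floxed segment, so in these libraries the genotypes rest on the labels. By quantitative RT-PCR the study found efficient deletion of Chd7 in GCps purified at P7. Xist, which is transcribed from the inactive X chromosome of female cells, had 792 and 0.114 CPM in cko GCps and 0.548 and 0.182 CPM in control GCps, so only cko replicate 1 held female RNA beyond a trace.

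Irs1 was the only IGF gene that passed the test. Its level was higher in cko GCps by 0.70 ± 0.12 on the log2 scale (SE), a 1.63-fold difference of the means. Igf2 had 1.46-fold higher mean levels in cko GCps and missed the threshold, and the other 8 genes did not pass in either direction. Thus 1 of the 10 genes was called higher and 0 were called lower by edgeR's quasi-likelihood test (adjusted p under 0.05), beside 0.809% of all tested genes called higher and 0.773% called lower. At an unadjusted p under 0.05, 3 of the 10 genes differed, Irs1 and Igf2 with higher and Igfbp3 with lower values in cko GCps, beside 13.6% of all tested genes. DESeq2's Wald test called 2 of the 10 higher (Igf2 and Irs1), beside 2.75% of all tested genes, and 0 lower, beside 2.59%. The median log2 fold change of the 10 genes was 0.06, and that of all tested genes was 0.00 when rounded to the same place.

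**Figure D1:**
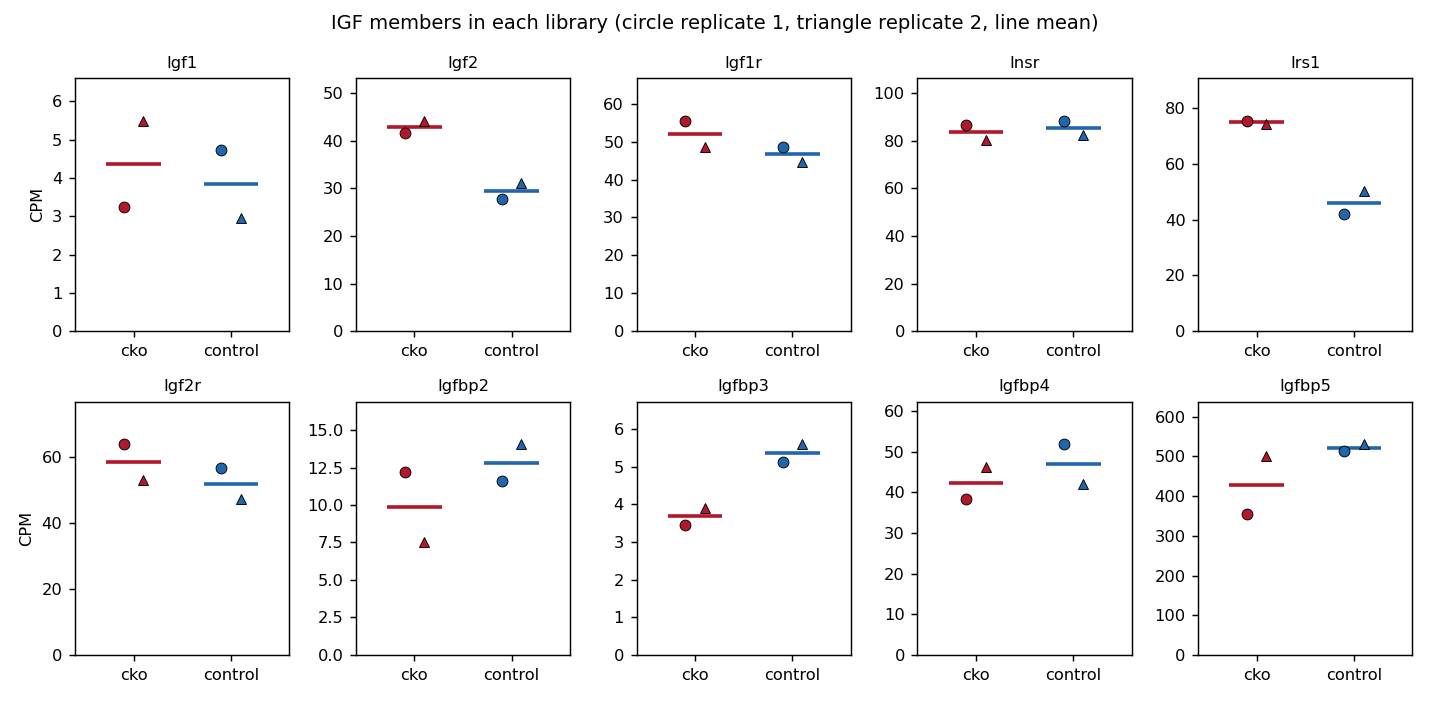
Level of each of the 10 IGF genes in CPM (vertical axis from 0, scale set per gene) in the cko and control libraries. Circles are replicate 1, triangles replicate 2 and lines the mean. Irs1, Igf2 and Igf1r have both cko points above both control points, Igfbp3 and Igfbp5 have both below, and the other 5 genes overlap.

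Irs1 encodes the adaptor that carries the signal from the IGF1 and insulin receptors to PI3K. It lies on chromosome 1 at chr1:82233101-82291416 (GRCm38, minus strand) and has 2 annotated exons in all. The gene had 75.5 and 74.1 CPM in cko GCps, from 5819 and 4560 reads, against 41.8 and 50.1 CPM in control GCps, from 3205 and 3024 reads. The 2 cko libraries were nearly equal, the control libraries were further apart, and the lowest cko value lay well above the highest control value. The log2 fold change of 0.70 had a 95% interval of 0.43 to 0.98, with an adjusted p of 0.0436 in edgeR's quasi-likelihood test. The call stood close to the threshold: without cko replicate 1 the adjusted p was 0.0691 (edgeR), without control replicate 1 it was 0.133 and without control replicate 2 it was 0.0732, with the difference in the same direction each time. In each such test 1 genotype keeps a single library, which is assumed to vary like the 2 libraries of the other genotype. Of the Irs1 exonic length, 30.9% overlaps the predicted gene Gm9747 on the opposite strand, which had 0 reads in all 4 libraries. Whether counting used strand is not stated, so this 0 cannot show whether the overlap changed the Irs1 count.

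Igf2 encodes the growth factor that dominates fetal growth in mice and is expressed from the paternal allele in most tissues. It lies at chr7:142650766-142666816 (GRCm38, minus strand). Igf2 had 41.7 and 44.2 CPM in cko GCps and 27.7 and 31.2 CPM in control GCps, from 3213 and 2718 reads and from 2119 and 1882 reads. The groups did not overlap, and the 2 libraries of each genotype lay closer to one another than to the other genotype. The log2 fold change was 0.54 ± 0.11 (SE), with a 95% interval of 0.28 to 0.81 and an unadjusted p of 0.0021 in edgeR's quasi-likelihood test. A share of 2.59% of all tested genes had a smaller p, and after adjustment over all of them the value was 0.0806. DESeq2's Wald test on the same counts gave an adjusted p of 0.00374, edgeR's likelihood ratio test gave 0.0253 and edgeR without a filter on low counts gave 0.0148, so the call depends on the test and the filter. Of the Igf2 exonic length, 64.5% is shared with other annotated genes. Most of that, 62.8%, lies in Gm49394 on the same strand, which is not among the genes of the count tables. The antisense gene Igf2os shares 1.71% and had 32 and 34 reads in cko GCps and 17 and 12 reads in control GCps.

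The 250 bases before the transcription start are shown for Irs1, as the gene that was called, for the Igf2 start whose window holds the most GC boxes, and for Igfbp5, as the member with the highest level. They come from RefSeq on GRCm38.p6, run 5′ to 3′ on the strand of the gene and end at the base before the start. Capitals mark the GC box GGGCGG, the motif of SP1-like factors, and the E box CACGTG, the motif of MYC and USF factors, each searched on both strands so that a GC box on the other strand reads CCGCCC. The windows are chr1:82291440-82291689 for Irs1, chr7:142657497-142657746 for Igf2 and chr1:72874866-72875115 for Igfbp5.
Irs1: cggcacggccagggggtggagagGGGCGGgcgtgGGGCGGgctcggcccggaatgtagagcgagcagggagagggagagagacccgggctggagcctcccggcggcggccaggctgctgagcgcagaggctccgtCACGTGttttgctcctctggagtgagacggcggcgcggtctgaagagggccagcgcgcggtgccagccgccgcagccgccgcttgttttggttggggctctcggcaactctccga
Igf2: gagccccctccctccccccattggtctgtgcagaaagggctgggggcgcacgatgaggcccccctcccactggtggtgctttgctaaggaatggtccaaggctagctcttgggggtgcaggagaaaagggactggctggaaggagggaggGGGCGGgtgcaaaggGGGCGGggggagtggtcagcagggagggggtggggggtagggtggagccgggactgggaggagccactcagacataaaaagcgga
Igfbp5: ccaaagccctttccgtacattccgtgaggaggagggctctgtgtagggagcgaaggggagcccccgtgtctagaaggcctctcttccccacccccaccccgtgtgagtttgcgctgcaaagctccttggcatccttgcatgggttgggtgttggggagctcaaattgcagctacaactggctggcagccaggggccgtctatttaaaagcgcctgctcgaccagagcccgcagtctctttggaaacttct

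The Irs1 window held 2 GC boxes and 1 CACGTG and was 72.4% G and C, against a median of 52.4% over all 32851 promoter windows. The Igf2 window was picked for its GC boxes, held 2 of them and was 66% G and C. The other Igf2 windows held 0, 0 and 1 GC box and were 50.8%, 47.6% and 68.8% G and C. Igfbp5 had neither motif in a window with 58.8% G and C. Of all windows, 32.7% held at least 1 GC box and 6.02% held CACGTG, so a GC box was common and the E box less so, and a match of letters is a description of the sequence and not a binding site. Igf2 has 4 listed starts, and gene-level counts add up the reads from all of them. The table held 13 windows for 9 of the 10 IGF genes. Igf1r had 2 GC boxes, Igf2r had 3 with 2 CACGTG, and Igfbp2 had 3 with 1 CACGTG at 1 of its 2 starts. Igf1, Igfbp3 and Igfbp4 had neither motif, and Insr had no window. The other members were at chr10:87858265-87937042 (Igf1), chr7:67952827-68233668 (Igf1r), chr8:3122061-3279617 (Insr), chr17:12682406-12769664 (Igf2r), chr1:72824503-72852474 (Igfbp2), chr11:7206086-7213923 (Igfbp3), chr11:99041244-99054392 (Igfbp4) and chr1:72857932-72874884 (Igfbp5) on GRCm38, and shared 0% of their exonic length with other annotated genes. 

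Igf1, the other ligand, had the lowest level per kilobase of the 10 genes in both genotypes. It had 3.24 and 5.50 CPM in cko GCps and 4.74 and 2.95 CPM in control GCps, from between 178 and 363 reads in a library. The libraries of each genotype spanned nearly the same range. The log2 fold change was 0.18 with a 95% interval of -0.63 to 0.99, the widest of the 10, and so took in both clear losses and clear gains. The sign also turned, to -0.25 without cko replicate 2 and to -0.12 without control replicate 2.

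Igf1r, the signaling receptor for both ligands, had 55.6 and 48.7 CPM in cko GCps and 48.5 and 44.7 CPM in control GCps. Both cko values lay above both control values, although cko replicate 2 and control replicate 1 were nearly equal. Its log2 fold change of 0.16 (95% interval -0.11 to 0.43) was not past the threshold of edgeR (adjusted p = 0.638). Insr, the insulin receptor, had 86.6 and 80.4 CPM in cko GCps and 88.4 and 82.2 CPM in control GCps. The genotypes overlapped almost completely, with a log2 fold change of -0.03 and the narrowest interval of the 10 genes, -0.26 to 0.20. Per kilobase of exon, the Insr level was 1.90 and 2.02 times that of Igf1r in the cko libraries and 2.23 and 2.25 times in the control libraries. Igf2r encodes the clearing receptor for IGF2 and is an imprinted gene, expressed from the maternal allele in most mouse tissues. It had 63.8 and 52.9 CPM in cko GCps and 56.6 and 47.1 CPM in control GCps. Replicate 1 was the higher library in both genotypes and the groups overlapped, with a log2 fold change of 0.17 (95% interval -0.16 to 0.50).

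All 4 binding protein genes had negative log2 fold changes, and none passed the test. Igfbp3, which encodes the main IGF carrier of the circulation, had 3.46 and 3.92 CPM in cko GCps and 5.12 and 5.60 CPM in control GCps. It was the member with the lowest p on the negative side: both cko libraries were below both control libraries, with a log2 fold change of -0.54 ± 0.19 (SE), a 95% interval of -0.99 to -0.09, an unadjusted p of 0.0249 and an adjusted p of 0.262 in edgeR's quasi-likelihood test. Igfbp5, which encodes a secreted binding protein that also attaches to extracellular matrix, had 356 and 500 CPM in cko GCps and 513 and 531 CPM in control GCps. Only cko replicate 1 stood clearly apart, and cko replicate 2 was close to the control libraries. The log2 fold change was -0.29 (95% interval -0.68 to 0.11; adjusted p = 0.557 by edgeR). It grew to -0.55 without cko replicate 2 and then passed (adjusted p = 0.0432, edgeR), a comparison of cko replicate 1, the library with the high Xist level, with the 2 control libraries, which then give the only replicate spread.

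Igfbp2, a binding protein gene next to Igfbp5 on chromosome 1 with 5.46 kb between their annotated ends, had 12.2 and 7.53 CPM in cko GCps and 11.6 and 14.1 CPM in control GCps. Here it was cko replicate 2 that was low, while Igfbp5 was low in cko replicate 1, so the neighbors did not share their low library. The Igfbp2 log2 fold change was -0.38 with a 95% interval of -0.97 to 0.22. Igfbp4, whose product is a substrate of the protease PAPP-A, had 38.3 and 46.2 CPM in cko GCps and 51.9 and 42.1 CPM in control GCps. The groups overlapped, and the log2 fold change of -0.15 (95% interval -0.50 to 0.19) came to 0.0026 without control replicate 1.

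**Figure D2:**
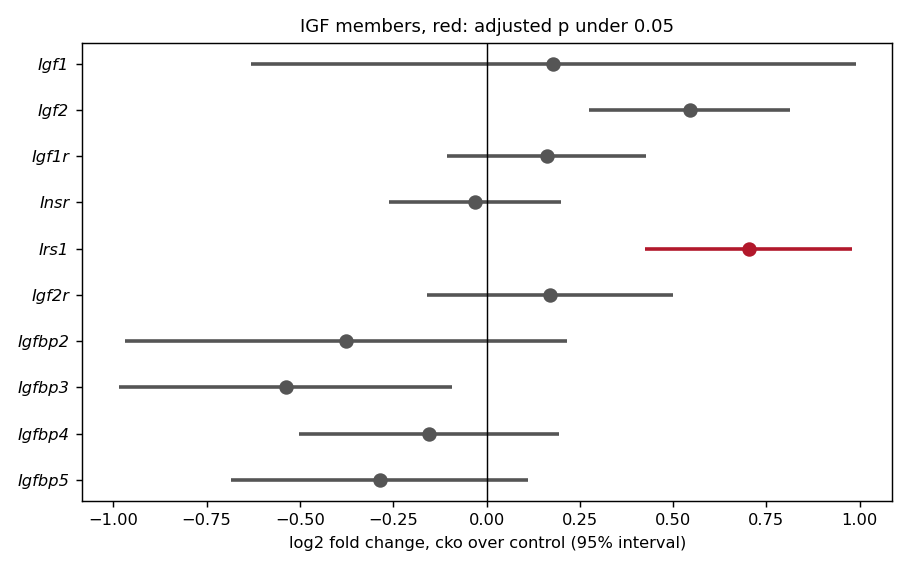
Log2 fold change of cko over control for each of the 10 IGF genes (horizontal axis), with points for the edgeR estimate and lines for its 95% interval. Irs1, in red at 0.70, passed the adjusted threshold; the intervals of Igf2 and Igfbp3 also leave out 0 but these genes did not pass after adjustment, and the other 7 intervals include 0.

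By separation of the libraries, 3 of the 10 genes (Irs1, Igf2, Igf1r) had both cko libraries above both control libraries, beside 22.7% of all tested genes, and 2 (Igfbp3, Igfbp5) had both below, beside 21.2%. The other 5 overlapped. With 2 libraries against 2, an exact permutation test of a single gene cannot give a two-sided p under 0.333. The shares of separated IGF genes were near those of all genes.

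Levels were compared between genes as mean CPM per kilobase of exon. In cko GCps the order was Igfbp5 at 71.3, Igfbp4 at 9.57, Irs1 at 8.18, Igf2 at 7.50, Igf2r at 6.27, Insr at 6.07, Igfbp2 at 5.34, Igf1r at 3.10, Igfbp3 at 1.18 and Igf1 at 0.441. In control GCps it was Igfbp5 at 86.9, Igfbp4 at 10.6, Igfbp2 at 6.95, Insr at 6.21, Igf2r at 5.57, Igf2 at 5.14, Irs1 at 5.03, Igf1r at 2.78, Igfbp3 at 1.71 and Igf1 at 0.388. Irs1 was thus the third gene in cko GCps and the seventh in control GCps by this measure. Its place in cko GCps depended on the length used. Per kilobase of the longest transcript, Igf2 at 9.09 and Insr at 8.92 lay above Irs1 at 8.18. In the control libraries, neighbors in this order from Igfbp2 through Irs1 overlapped, whereas Igfbp5, Igfbp4, Igf1r, Igfbp3 and Igf1 were each separate from their neighbors. Igfbp5 made up 86.8% and 89.7% of the summed CPM of the 4 binding protein genes in cko GCps and 88.2% and 89.6% in control GCps, and its control level per kilobase was higher than that of 97.0% of tested genes. The main ligand transcript was Igf2, whose level per kilobase was 22.2 and 13.9 times that of Igf1 in the cko libraries and 10.1 and 18.3 times in the control libraries. Igfbp5 was 8.14 and 10.8 times as high as Igf2 in the cko libraries and 17.7 and 16.2 times as high in the control libraries. These ratios were chosen after the values were seen and were not tested.

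The genes whose profile over the 4 libraries was most like that of Irs1, by Euclidean distance of centered log2 CPM, were Neil2, a DNA glycosylase gene (distance 0.031), Clec1a, a C-type lectin gene (0.041), and Cmbl, a hydrolase gene (0.044). None of the 3 passed the test themselves (adjusted p of 0.394, 0.255 and 0.444 by edgeR).

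The wider pathway was followed in 6 lists of 73 further genes, of which 65 were tested. Of these, 2 were called higher in cko GCps and 0 lower by edgeR's quasi-likelihood test, beside the 0.809% and 0.773% of all tested genes. At an unadjusted p under 0.05 there were 14, or 21.5% of the 65, beside 13.6% of all tested genes. DESeq2's Wald test called 5 higher and 4 lower, beside 2.75% and 2.59% of all genes, and without cko replicate 2 edgeR called 3 lower, beside 2.3% of all genes. These lists were chosen with earlier results of these data known, so the shares are a description. The genes named below were those called, the gene with the highest mean CPM in each list with no call, and others chosen after their values were seen.

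Among 8 tested genes for other binding proteins, IGFBP proteases and their inhibitors, 1 was called higher. Stc1, which encodes stanniocalcin-1, a secreted inhibitor of the IGFBP4 protease PAPP-A, had 7.43 and 8.58 CPM in cko GCps and 1.70 and 2.97 CPM in control GCps. The groups were far apart, with a log2 fold change of 1.78 ± 0.29 (SE; adjusted p = 0.0421, edgeR's quasi-likelihood test), although the adjusted p was 0.0699 without cko replicate 1 and 0.0540 without cko replicate 2. Stc2, its paralog, had 2.23 and 2.08 CPM in cko GCps and 1.57 and 1.26 CPM in control GCps and did not pass (log2 fold change 0.61, adjusted p = 0.337 by edgeR). Pappa, the gene of PAPP-A itself, was near the lower limit of detection, at 0.195 and 0.211 CPM in cko GCps and 0.157 and 0.365 CPM in control GCps. Igfbpl1, an IGFBP-like gene, had 1129 and 1030 CPM in cko GCps and 1109 and 918 CPM in control GCps, which overlapped.

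Among 14 tested genes for insulin ligands, other receptors and adaptors, 0 were called in either direction by edgeR, with 4 at an unadjusted p under 0.05, beside 13.6% of all tested genes. The gene with the highest mean CPM, Ptpn11, which encodes the phosphatase SHP2, had 266 and 258 CPM in cko GCps and 260 and 238 CPM in control GCps, with a log2 fold change of 0.07. Irs2, the other widely expressed insulin receptor substrate gene, had 28.1 and 35.5 CPM in cko GCps and 29.2 and 29.2 CPM in control GCps, and its log2 fold change of 0.12 had a 95% interval of -0.20 to 0.45. That interval and the one of Irs1 (0.43 to 0.98) overlap slightly, and the difference between these paralogs was not tested. Gab1, a docking adaptor that also recruits PI3K, had 131 and 171 CPM in cko GCps and 228 and 233 CPM in control GCps (log2 fold change -0.61, adjusted p = 0.102 by edgeR). It was called lower with DESeq2's Wald test, edgeR's likelihood ratio test, no filter on low counts and the replicate block. With DESeq2 size factors or upper-quartile scaling it was not called. Ins1 had 0 reads in all 4 libraries and Ins2 at most 1 read in a library.

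Further downstream, 0 of 20 PI3K, AKT and mTOR genes were called by edgeR in either direction. At an unadjusted p under 0.05 there were 2, or 10%, beside 13.6% of all tested genes. Their median log2 fold change was -0.01. Gsk3b, a kinase gene and the one with the highest mean CPM of the list, had 293 and 332 CPM in cko GCps and 311 and 319 CPM in control GCps. Akt2 had 223 and 241 CPM in cko GCps and 301 and 292 CPM in control GCps, and Pik3r2, for a PI3K regulatory subunit, had 168 and 201 CPM in cko GCps and 273 and 237 CPM in control GCps. Both had lower values in each cko library and an adjusted p of 0.149 (Akt2) and 0.150 (Pik3r2) by edgeR. DESeq2's Wald test called both of them lower.

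Of 11 FOXO factors and targets, 1 was called higher. Foxo6, a FOXO factor of the nervous system, had 19.8 and 19.1 CPM in cko GCps and 9.56 and 10.1 CPM in control GCps, with both pairs of replicates close together. Its log2 fold change was 0.99 ± 0.13 (SE; adjusted p = 0.0248 by edgeR, and 0.103 without control replicate 2). Foxo1 had 17.0 and 20.7 CPM in cko GCps and 11.2 and 14.4 CPM in control GCps and did not pass (log2 fold change 0.56, adjusted p = 0.210 by edgeR). The list had 5 genes at an unadjusted p under 0.05, beside 13.6% of all genes, and a median log2 fold change of 0.23, against 0.00 for all genes. Sesn1, a stress-response gene, had 70.1 and 69.5 CPM in cko GCps and 53.7 and 52.4 CPM in control GCps (log2 fold change 0.39, adjusted p = 0.110 by edgeR).

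**Figure D3:**
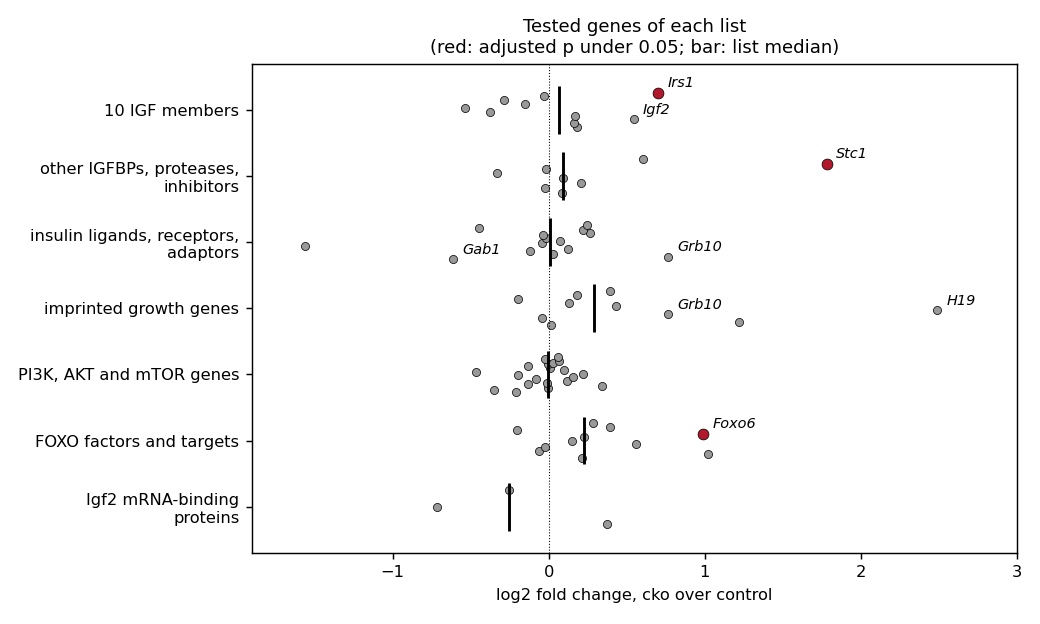
Log2 fold change of cko over control (horizontal axis) for each tested gene of the 10 IGF members and of 6 wider lists (rows), with red points for genes that passed the adjusted threshold and a bar at each list median. Irs1, Stc1 and Foxo6 are the 3 red points; H19, at 2.49, lies farthest to the right and did not pass. Grb10 is in 2 lists.

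Igf2 shares a cluster of imprinted genes with H19, a noncoding RNA of the maternal allele, and 72.6 kb separate the annotated genes. H19 had 14.1 and 28.9 CPM in cko GCps and 4.86 and 2.77 CPM in control GCps. The groups did not overlap, but the 2 cko libraries were far from one another, and the log2 fold change of 2.49 ± 0.47 (SE) did not pass in edgeR (adjusted p = 0.116). DESeq2's Wald test gave an adjusted p of 1.64e-09 and edgeR's likelihood ratio test gave 4.99e-05. By edgeR's quasi-likelihood test it was 0.407 without a filter on low counts and 0.460 with the replicate block. The call of H19 thus depends on the test. Of the 10 tested imprinted genes of growth control, 0 were called by edgeR in either direction and 2 had an unadjusted p under 0.05, H19 and Grb10, beside 13.6% of all genes. Grb10, an adaptor that dampens insulin and IGF1 receptor signaling, had 96.7 and 84.2 CPM in cko GCps and 40.4 and 65.9 CPM in control GCps (log2 fold change 0.77, adjusted p = 0.256 by edgeR). Gnas, with the highest mean CPM of the list, had 404 and 398 CPM in cko GCps and 434 and 392 CPM in control GCps, and overlapped. Among 3 Igf2 mRNA-binding proteins, 0 were called by edgeR, 0 had an unadjusted p under 0.05, and the one with the highest mean CPM, Igf2bp3, had 14.2 and 12.9 CPM in cko GCps and 13.0 and 19.3 CPM in control GCps.

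Markers of other cells were measured in the same libraries, because Igf2, H19 and Stc1 are not restricted to granule precursors. The 10 skeletal muscle markers summed to 43.2 and 69.1 CPM in cko GCps and 15.2 and 12.6 CPM in control GCps. All 10 lay higher in both cko libraries, 6 were called higher, and none was at 0 in any library. For this and the other marker lists, the shares of all tested genes were 22.7% higher in both cko libraries and 21.2% lower in both. Of all tested genes, 0.809% were called higher and 0.773% lower by edgeR. The marker lists were chosen with earlier results of these data known, so their counts beside these shares are a description and not a test. Endothelial markers summed to 393 and 404 CPM in cko GCps and 296 and 257 CPM in control GCps. Of these, 9 of 10 were higher in both cko libraries and 0 were called by edgeR. Mural cell markers summed to 160 and 215 CPM in cko GCps and 156 and 145 CPM in control GCps. In this list 4 of 8 were higher and 0 lower in both cko libraries, and 0 were called by edgeR. Meningeal fibroblast markers, from a tissue known to express Igf2, summed to 248 and 242 CPM in cko GCps and 253 and 247 CPM in control GCps. Most of that sum was Pdgfra, at 148 and 142 CPM in cko GCps and 136 and 146 CPM in control GCps. Of the 10 markers in this list, 1 was higher and 3 were lower in both cko libraries, so the sum says little about the weaker markers. Choroid plexus markers summed to 119 and 97.0 CPM in cko GCps and 86.1 and 80.5 CPM in control GCps, of which Otx2, a gene also made in granule precursors, had 87.5 and 95.1 CPM in cko GCps and 66.9 and 77.0 CPM in control GCps. Ttr, the defining choroid plexus gene, had 29.9 and 0.943 CPM in cko GCps and 17.9 and 2.64 CPM in control GCps, which overlapped. The oligodendrocyte lineage markers summed to 258 and 283 CPM in cko GCps and 242 and 192 CPM in control GCps, with 5 of 8 higher in both cko libraries and 1, Olig2, called higher. GABAergic interneuron markers summed to 64.7 and 65.6 CPM in cko GCps and 48.7 and 59.3 CPM in control GCps, with all 5 higher in both cko libraries and 0 called by edgeR. What any of these cells contributed to Igf2, Irs1, H19 or Stc1 was not tested. The sum of the astrocyte and Bergmann glia markers ran the other way, at 923 and 906 CPM in cko GCps and 1066 and 1133 CPM in control GCps. Of these 10 markers, 6 were lower and 1, Gfap, was higher in both cko libraries, and 0 were called by edgeR. What astrocytes and Bergmann glia contributed to the values of the binding protein genes was not tested. In bulk RNA, fewer cells of a type and less RNA per cell cannot be told apart.

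**Figure D4:**
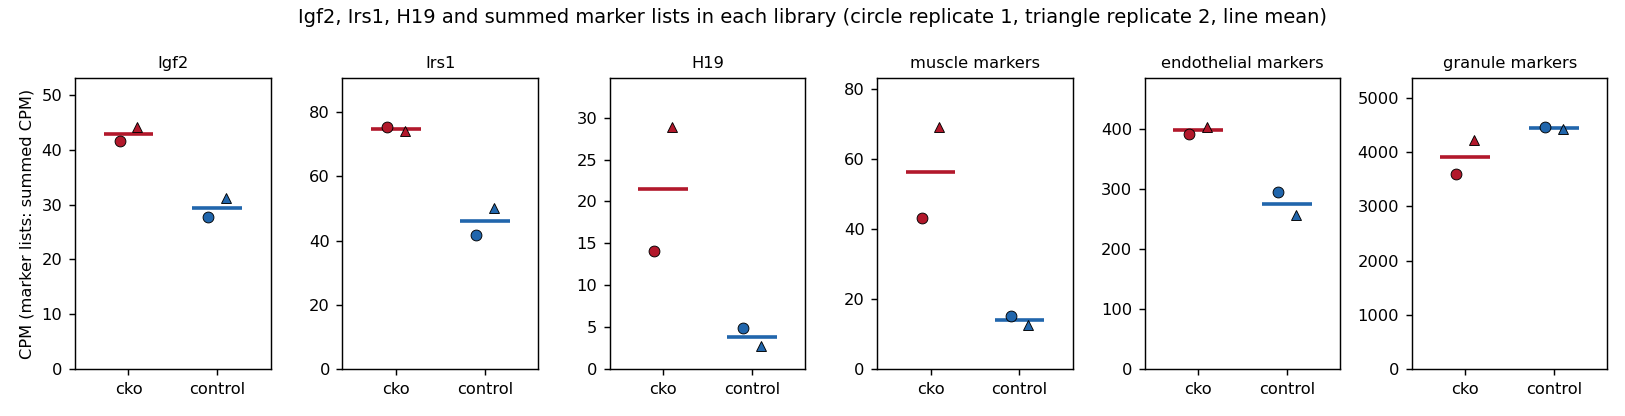
Level in each library of Igf2, Irs1 and H19 in CPM and of skeletal muscle, endothelial and granule precursor marker lists in summed CPM (vertical axes from 0), with circles for replicate 1, triangles for replicate 2 and lines for the mean. Both cko points lie above both control points in the first 5 panels. The granule marker sum is lower in both cko libraries (3598 and 4232, against 4471 and 4432). Zic1 weighs most in this sum, and Neurod1 had 475 and 780 CPM in cko GCps and 1051 and 999 CPM in control GCps. Of the 8 granule markers, 3 are higher and 3 lower in both cko libraries.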

How the data were processed

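RNA-Seq of P7 GCps was analysed in 2 cko and 2 control libraries; the ATAC-Seq and ChIP-Seq samples were not used here. The authors deposited 1 file per library of unnormalized counts, whole numbers of reads for each Ensembl gene. The methods and the submitters' notes give Trim Galore 0.4.1 for trimming, TopHat2 2.0.14 for alignment to mm10, HTSeq 0.6.1p1 with Ensembl 75 for counting (intersection-strict, alignments under quality 3 skipped) and DESeq2 1.8.1 for the authors' own test. Whether counting used strand is not stated in these sources, so overlapping genes on opposite strands are uncertain.

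Counts were filtered with filterByExpr, scaled by TMM and tested for cko over control with edgeR 4.0.16 (robust quasi-likelihood, R 4.3.3). P values were adjusted by Benjamini-Hochberg over all 16436 tested genes, with 0.05 as the threshold. The SE is the log2 fold change divided by the square root of F. Names, positions and exon lengths came from GENCODE vM21 on GRCm38. Alternatives were DESeq2 1.42.0, other scalings and tests, no filter, a replicate block and leaving out each library. Total counts were 61836588 to 77346481 per library, and each IGF gene had at least 178 reads in every library. Replicate libraries differed beyond sampling noise.

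The genes named were all 10 members, in each wider list up to 4 called genes with the lowest adjusted p or else the gene with the highest mean CPM, the 3 profiles nearest to a called member, and further genes chosen after their values were seen. The members, lists and markers were chosen with earlier results of these data known, including the study's list of changed genes. One imprinted gene, Kcnq1ot1, was not matched to a gene of the tables.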

Additional observations from a re-analysis of the deposited data

How the results depend on the processing

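The number of IGF genes called higher was 1. It was 2 (Igf2 and Irs1) with DESeq2's Wald test, with edgeR's likelihood ratio test, with no filter on low counts and with the replicate block, and 0 to 1 on leaving out single libraries. The number called lower was 0, and 0 to 1 on leaving out single libraries (Igfbp5 without cko replicate 2). Of the wider genes, 2 were called higher, against 5 with DESeq2's Wald test, 6 with the replicate block and 2 to 3 on leaving out single libraries, and 0 lower, against 4 with DESeq2's Wald test, 1 with the likelihood ratio test, 3 with no filter, 3 with the replicate block and 0 to 3 on leaving out single libraries.

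Irs1 kept its direction in 10 of 10 alternatives and its call in 7 (adjusted p of 4.66e-05 to 0.133). Igf2 kept its direction in 10 of 10 and passed in 4 (0.0037 to 0.389). On leaving out single libraries the log2 fold change ran from -0.25 to 0.56 for Igf1, from -0.30 to 0.0026 for Igfbp4 and from -0.084 to 0.0204 for Insr, so these signs turned. The cause was not tested.

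Over all genes 260 were called, against 878 with DESeq2's Wald test, 675 with the likelihood ratio test, 727 with no filter, 1010 with the replicate block, and 115 without control replicate 2 to 712 without cko replicate 2. The deviations of libraries with the same number correlated at 0.187 (Pearson, across 16436 genes, which are not independent), and with 2 libraries a genotype they are taken to share only a number. With the block Igf2 had an adjusted p of 0.0104 (edgeR). DESeq2 size factors and upper-quartile scaling changed no IGF call. With the longest transcript in place of all exons, Igf2 (6.23 CPM per kilobase) moved above Igf2r (5.84) in control GCps. In cko GCps, Igf2 (9.09) and Insr (8.92) then moved above Irs1 (8.18). The 2 libraries a genotype limit every comparison.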
